A study of Mus musculus with 4 samples.

Results

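The mitochondrial ribosomal proteins were examined in bulk mRNA-seq of mouse liver. They were taken as every gene of the deposited table whose symbol starts with Mrpl or Mrps followed by a digit, which gave 77 of 13903 genes, 48 with an Mrpl symbol and 29 with an Mrps symbol. All mice were OGT-Floxed on the C57BL/6J background and ate the CDE diet, a choline-deficient, ethionine-supplemented feed that damages hepatocytes. The OGT-KO label stands for injection of AAV8-TBG-CRE, a virus carrying Cre, and the control label for AAV8-TBG-eGFP in mice with the same floxed Ogt. Tissue was collected either without recovery or following a 7 Day recovery. RNA of 3 mice was pooled equally into 1 library per condition, 4 libraries in all, and replicate error is therefore unknown. The TBG promoter is active in hepatocytes, so the other cells of the liver keep Ogt under both labels.

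Mitochondrial ribosomes translate the few proteins that mitochondrial DNA encodes, all of them subunits of the oxidative phosphorylation complexes. Their RNAs come from the mitochondrial genome, whereas every one of their proteins is encoded in the nucleus, made on cytosolic ribosomes and imported. The large subunit holds the peptidyl transferase center and an exit tunnel that opens at the inner membrane, and the small subunit binds mRNA and decodes it. Hepatocytes are rich in mitochondria, and their respiratory subunits are among the abundant RNAs of liver.

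Ogt encodes the O-GlcNAc transferase that the Cre recombinase was meant to remove. It was at 55.3 CPM (reads scaled to a common library total of 1000000) under the OGT-KO label and at 64.7 CPM in its control before recovery, and at 77.7 and 55.7 CPM after 7 days. The library labelled OGT-KO was thus the higher one after 7 days, against its label. The log2 fold changes were -0.22 and 0.47 as deposited, between -0.93 and -0.69 and between -0.20 and -0.01 under the 3 other scalings described below, and limma gave an adjusted p of 0.556. Markers of several cell types moved with the labels. The 9 hepatocyte markers in the table, of 10 listed, summed to 5.67% and 6.88% of the libraries labelled OGT-KO and to 8.74% and 10.02% of the controls (no recovery, then 7 days). Alb made up most of each sum, at 41362 and 51507 CPM against 47845 and 54434.5 CPM. As deposited, its log2 fold changes were -0.21 and -0.08, where the medians over the 9 were -1.34 and -1.56. The 5 cholangiocyte markers summed to 1148 and 1457 CPM against 53.7 and 69.6 CPM, and the 7 stellate and myofibroblast markers to 3225 and 3964 CPM against 198 and 140 CPM. The 6 macrophage markers summed to 818 and 663 CPM against 204 and 76.3 CPM, the 5 endothelial markers to 296 and 218 CPM against 171 and 118 CPM, and the 5 proliferation markers to 151 and 309 CPM against 23.1 and 26.2 CPM. The 3 lymphocyte markers in the table, of 5 listed, and the 3 neutrophil markers were low, at sums of 0.851 to 4.77 CPM and 1.001 to 23.4 CPM, and no listed marker in the table was at 0 in any library. The part of these shifts in the results below was not tested. In bulk tissue, fewer cells of a type and less RNA per cell cannot be told apart.

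All 77 genes were detected in all 4 libraries, from 57 reads for Mrps6 in the control after 7 days to 3350 reads for Mrpl38 under the OGT-KO label before recovery. Per kilobase of exon, the mean level over the 4 libraries ran from 3.66 CPM for Mrpl3 to 111 CPM for Mrpl52, with a median of 20.5 CPM over the 77 genes. Mrpl12 (94.5 CPM per kilobase), Mrpl38 (78.6), Mrps21 (73.5) and Mrpl42 (71.6) followed Mrpl52. Mrpl12 is the protein of the flexible stalk, of which a ribosome carries several copies. At the low end stood Mrpl19 (4.05 CPM per kilobase), Mrps14 (5.26), Mrps26 (5.35) and Mrps25 (5.397), next to Mrpl3. Exon length here is the union over all protein-coding transcripts of a gene, 5205 bases for Mrpl3 and 5000 for Mrpl19 against 1316 for Mrpl12. A long transcript lowers the value whether or not liver uses it, so the order may depend on this choice. On the same scale the median was 182 CPM per kilobase for 75 cytosolic ribosomal proteins and 103 for 76 nuclear subunits of oxidative phosphorylation. By this measure the RNAs of the mitochondrial ribosome had a lower median than those of the cytosolic ribosome and of the respiratory complexes in the same livers.

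Together the 77 genes took 3145 CPM under the OGT-KO label and 2385 CPM in the control before recovery, and 2990 and 2305 CPM after 7 days. As deposited, the sum was 1.32-fold higher under the OGT-KO label with no recovery (95% counting interval 1.30 to 1.33) and 1.30-fold higher after 7 days (1.28 to 1.31). Most genes of these libraries leaned the same way, however. A mean level of 10 CPM or more was reached by 8963 genes, 73 of the 77 among them. Over these 8963, the median log2 fold change was 0.51 with no recovery and 0.48 after 7 days. The 73 had medians of 0.41 and 0.37, which is 0.10 and 0.11 below all genes. The 100 most abundant genes took 34.1% and 34.3% of the libraries labelled OGT-KO but 42.8% and 45.0% of the controls. Under median-ratio, upper-quartile or TMM (trimmed mean of M values) scaling instead, the member medians were all negative, between -0.31 and -0.06. Their distance from the median of all genes stayed between -0.13 and -0.10 under all 4 scalings and both times. The direction of the whole group therefore depended on the scaling, and its place just below the middle of the transcriptome did not.

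The spread of the group was narrow beside that of all genes, but not beside that of the groups most like it. The SD of the log2 fold change between labels was 0.44 over the 73 members with no recovery and 0.35 after 7 days, against 1.15 and 1.12 over all genes. It was 0.24 and 0.21 over the cytosolic ribosomal proteins and 0.43 and 0.29 over the nuclear subunits of oxidative phosphorylation. With no recovery, 3 members were at least 2-fold higher under the OGT-KO label (Mrpl21, Mrpl22 and Mrpl39), where 24.4% of all genes were, and 1 was at least 2-fold lower (Mrpl34), where 5.69% were. After 7 days only Mrpl21 was at least 2-fold higher and none was 2-fold lower, beside 22.9% and 4.27% of all genes. The log2 fold changes at the 2 times, which share no library, had a Pearson r of 0.91 and a Spearman rho of 0.87 across the 73 members, against 0.94 and 0.91 across all genes. These are correlations across genes, which are not independent replicates, and each label carries its own scaling at both times. Of the 73 members, 20 lay above the median of all genes at both times and 42 lay below it at both. Of the 8963 genes, 3847 lay above it at both times and 3848 below it at both.

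**Figure D1:**
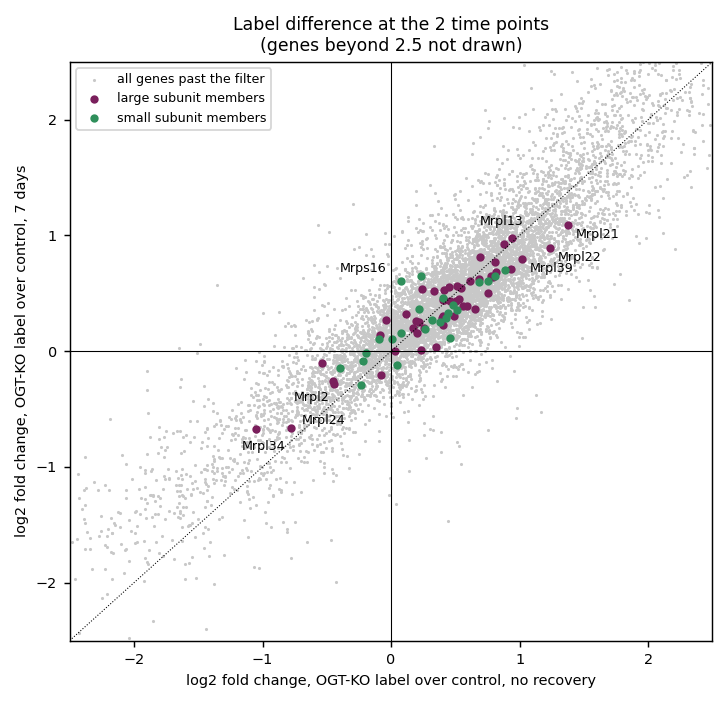
Log2 fold change of CPM + 1 between the labels with no recovery (x axis) and after 7 days (y axis), 1 point a gene. The 73 members lie close to the diagonal and inside the cloud of all 8963 genes, with Mrpl21 at 1.38 and 1.09 at one end and Mrpl34 at -1.05 and -0.67 at the other.

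Both libraries labelled OGT-KO were above both controls for 56 members, beside 70% of all genes, and below both for 9 members, beside 16.6% of all genes. The libraries overlapped for the other 8. A limma fit of label and time to the 4 libraries treats the 2 times as repeats of the label difference and has 1 residual degree of freedom, and an exact permutation test of 2 libraries against 2 cannot give a two-sided p below 0.333. At an adjusted p under 0.05, limma called 39 members higher under the OGT-KO label, beside 57% of all genes, and 4 lower (Mrpl2, Mrpl14, Mrpl24 and Mrpl34), beside 11.5%. The edgeR quasi-likelihood test on the recovered reads, with TMM scaling, called 1 member higher (Mrpl21) beside 20.2% of all genes, and 24 lower beside 33.4%. For time, neither fit called any of the 8963 genes. At an unadjusted p under 0.05 limma held 640 genes and edgeR 600, with no member among them in either, so these fits say nothing particular to the members. The calls between labels therefore follow the scaling, and what the scaling leaves in place is the order of the members among themselves. Under the deposited scaling and the 3 others, 9 members were higher under the OGT-KO label at both times (Mrpl1, Mrpl13, Mrpl21, Mrpl22, Mrpl35, Mrpl39, Mrpl45, Mrps18a and Mrps31), and 10 were lower at both times (Mrpl2, Mrpl4, Mrpl14, Mrpl24, Mrpl27, Mrpl34, Mrps9, Mrps14, Mrps24 and Mrps35). These sets rest on sign alone, and the share of all genes meeting the rule was not computed. As deposited, the counting interval of the ratio included 1 for Mrpl4, Mrps14, Mrps24 and Mrps35 after 7 days and Mrpl27 with no recovery. It excluded 1 at both times for the other members of the 2 sets. Values from here on are at the deposited scaling, and members past the filter in neither set change sign with the scaling or the time.

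**Figure D2:**
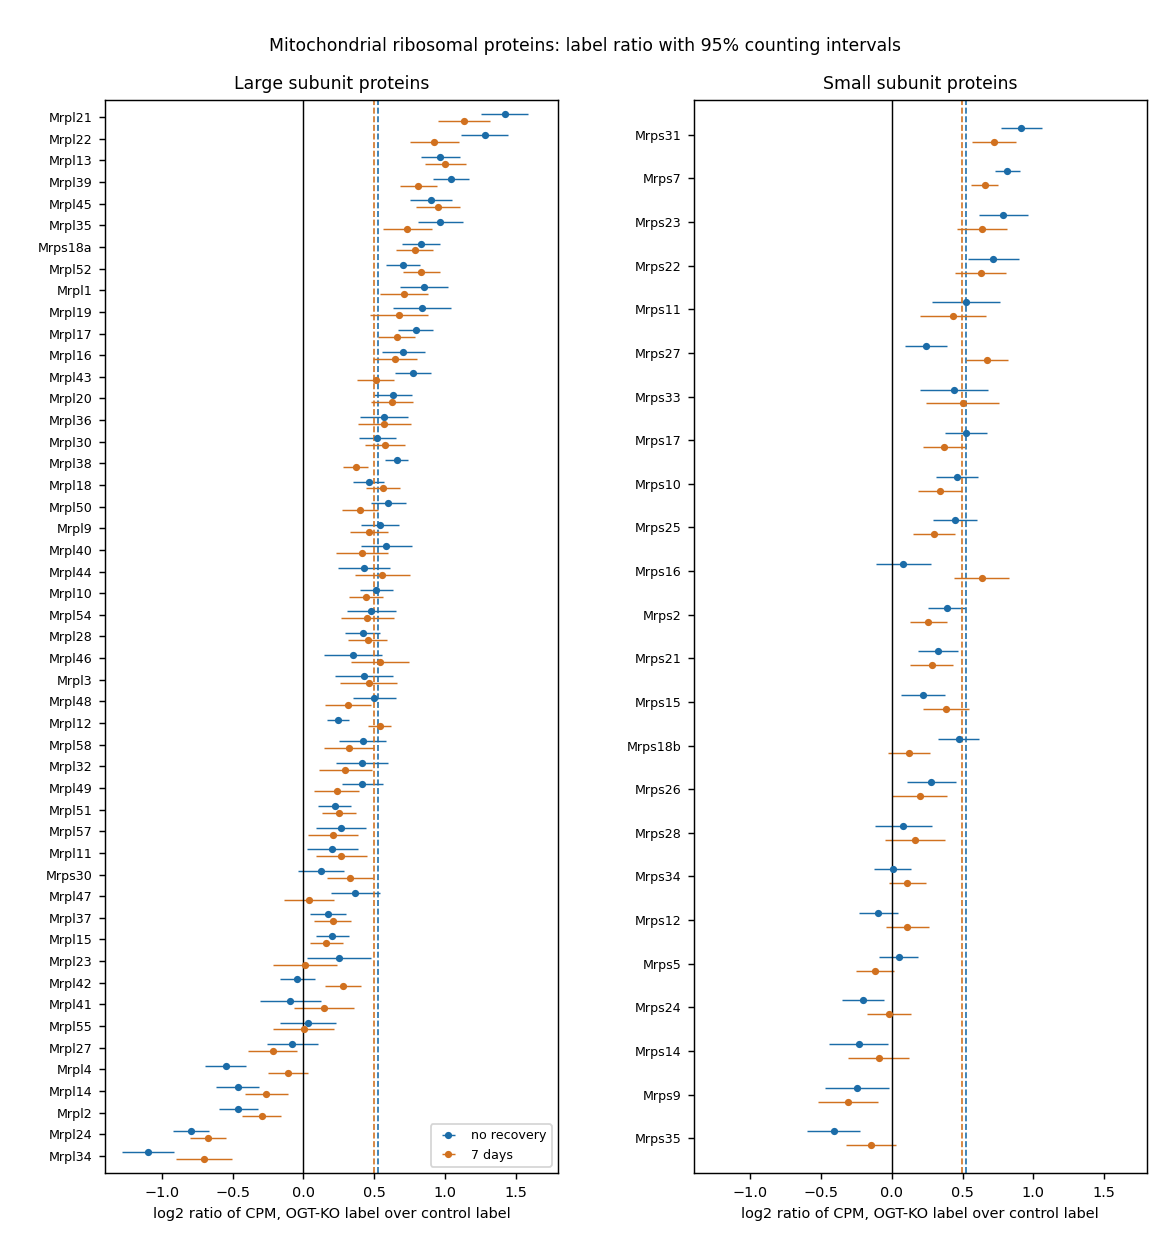
Log2 ratio of CPM between the labels for the 49 large subunit and 24 small subunit members, sorted by their mean, with 95% counting intervals. Solid lines mark 0 and dashed lines the median of all genes on this scale, without the added 1 (0.52 with no recovery and 0.50 after 7 days), and 42 members lie below their line at both times. With the added 1, 3848 of the 8963 genes lie below their median at both times.

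The members at the ends of this order belong to the large subunit, and the sequence before the start of 4 of them is shown because these genes lie farthest out in mean label difference. The stretches are the 150 bases before the start listed by RefSeq on GRCm38.p6, an older build than the GRCm39 that the submitters' processing notes name. Capitals mark matches, on either strand, to CCGGAAG (bound by ETS factors such as GABPA) and GCGCANGCG (bound by NRF1), factors known for driving nuclear genes of mitochondria. For Mrpl21 and Mrpl34, the bases just after the listed start were not found near the beginning of any GENCODE transcript of the gene. The start of these 2 is therefore less certain.

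Mrpl21 (chr19:3282892-3283041, plus strand): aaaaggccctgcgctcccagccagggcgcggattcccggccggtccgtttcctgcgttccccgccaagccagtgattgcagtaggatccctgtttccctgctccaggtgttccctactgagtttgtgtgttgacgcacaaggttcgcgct
Mrpl22 (chr11:58171514-58171663, plus strand): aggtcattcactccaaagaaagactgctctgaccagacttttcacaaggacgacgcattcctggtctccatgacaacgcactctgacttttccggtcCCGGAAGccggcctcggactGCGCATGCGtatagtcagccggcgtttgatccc
Mrpl24 (chr3:87919394-87919543, plus strand): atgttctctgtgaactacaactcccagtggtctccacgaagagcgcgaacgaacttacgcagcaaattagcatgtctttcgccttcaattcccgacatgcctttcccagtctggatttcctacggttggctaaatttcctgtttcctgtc
Mrpl34 (chr8:71464776-71464925, plus strand): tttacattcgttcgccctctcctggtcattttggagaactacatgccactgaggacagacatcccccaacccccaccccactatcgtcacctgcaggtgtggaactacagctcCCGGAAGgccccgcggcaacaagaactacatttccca

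Within these stretches, Mrpl22 holds both motifs, Mrpl34 the ETS motif, and Mrpl21 and Mrpl24 neither. In the longer window used next, which also takes in 100 more bases before the start and 50 after it, Mrpl21 holds the ETS motif too. In the 300 bases around the start (250 before and 50 after), CCGGAAG was found in 35.3% of the 68 members that RefSeq's promoter table holds, in 19.8% of 7178 genes past the filter and in 9.12% of all 27025 promoters of the table. GCGCANGCG was found in 23.5%, 14.8% and 6.47%, and the YY1 motif AAGATGGCG in 11.8%, 3.86% and 1.49%. The other motifs searched were CACGTG (an E-box, bound by MYC), in 7.35% of members and 10.7% of genes past the filter, CCAAT, in 38.2% and 38.2%, and TATAAA, in 5.88% and 7.11%. All were sought on both strands, and matches may overlap. The 22 members with the ETS motif had median log2 fold changes of 0.41 and 0.48 and the 42 without it 0.41 and 0.34. For NRF1 the medians were 0.43 and 0.44 in 16 members with the motif and 0.41 and 0.36 in 48 without. The SD over single members was 0.44 and 0.35, and the differences between these medians were not tested.

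Mrpl21, a protein bound to the 16S rRNA, had the highest label difference of the 73. It was at 50.5 CPM under the OGT-KO label and 18.8 CPM in the control before recovery, and at 37.1 and 16.9 CPM after 7 days. The ratio was 2.68 (95% counting interval 2.39 to 3.01) before and 2.19 (1.93 to 2.49) after recovery, with a limma log2 difference of 1.23 ± 0.14 (SE) and an adjusted p of 0.000446. Both libraries labelled OGT-KO stood well above both controls. Mrpl21 overlaps the gene Ighmbp2 head to head, 14.2% of its transcript sequence in 50-base words also occurs in other genes, and Ighmbp2 differed by 1.63 and 0.98 (log2) itself. Whether the counting used strand is not given in the sources used here, so reads of the 2 genes may not be separable.

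Mrpl22 lines the exit tunnel. It had 47.9 and 19.7 CPM with no recovery (OGT-KO label, then control) and 38.2 and 20.1 CPM after 7 days, a log2 fold change of 1.24 and 0.89. Next to it at the mouth of the tunnel sits Mrpl24, which lay at the opposite end of the order: 35.7 and 62.0 CPM with no recovery and 39.7 and 63.2 CPM after 7 days, or -0.78 and -0.66. The limma adjusted p was 0.000916 for Mrpl22 and 0.00253 for Mrpl24. For each of the 2 genes the labels did not overlap, and the directions were opposite. Of Mrpl23, also at the tunnel, less can be said, since 51.7% of its sequence recurs in a pseudogene copy and its log2 fold changes were 0.23 and 0.01. For Mrpl22 and Mrpl24 the recurring shares were 33.4% and 33.5%. Mrpl45, which ties the ribosome to the inner membrane, was at 49.2 and 26.3 CPM and at 47.9 and 24.8 CPM (0.88 and 0.92), with a limma adjusted p of 0.000994. Mrpl44 had 0.41 and 0.53, and Mrpl47, the protein next to the tunnel with a counterpart in bacterial L29, had 0.35 and 0.04. Of these 6 proteins around the exit, limma called 3 higher and 1 lower, near the 57% and 11.5% of all genes. EdgeR called none of the 6 higher and 2 lower, beside 20.2% and 33.4% of all genes.

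**Figure D3:**
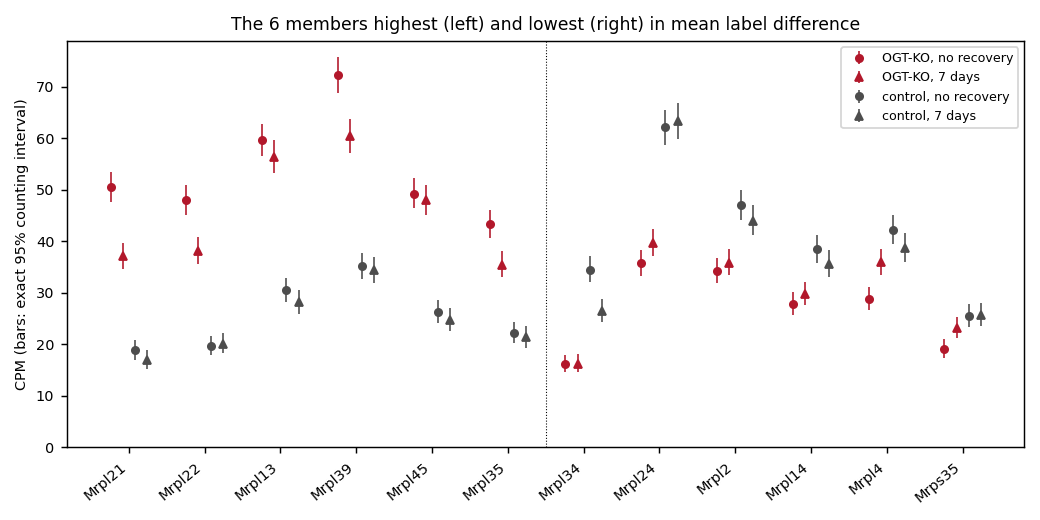
CPM in each of the 4 libraries with exact 95% counting intervals for the 6 members highest (left) and the 6 lowest (right) in mean label difference. On the left both libraries labelled OGT-KO stand above both controls (Mrpl21 at 50.5 and 37.1 against 18.8 and 16.9 CPM), and on the right they stand below (Mrpl24 at 35.7 and 39.7 against 62.0 and 63.2 CPM).

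Among the proteins at the core of the large subunit, Mrpl13 was at 59.6 and 30.5 CPM with no recovery and at 56.4 and 28.1 CPM after 7 days, a log2 fold change of 0.94 and 0.98. Of its transcript sequence, 17.9% recurs in another gene, Mtbp. Mrpl2, which lies close to the peptidyl transferase center, was at 34.2 and 46.9 CPM and at 35.8 and 44.0 CPM, or -0.45 and -0.29, with a limma adjusted p of 0.0383. Mrpl4 was lower by less and unevenly, at -0.53 with no recovery and -0.11 after 7 days (limma adjusted p = 0.0973). The same list of 9 rRNA-bound proteins thus held members on both sides, with medians of 0.62 and 0.61. Limma called 6 of them higher and 1 lower (57% and 11.5% of all genes), and edgeR 1 higher and 3 lower (20.2% and 33.4% of all genes). Mrpl3 (0.40 and 0.44), Mrpl15 (0.20 and 0.16), Mrpl16 (0.69 and 0.63), Mrpl17 (0.78 and 0.65) and Mrpl20 (0.62 and 0.61) lay between these ends.

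Mrpl34, a small protein with a bacterial counterpart, had the lowest values. It was at 16.1 and 34.5 CPM with no recovery and at 16.3 and 26.4 CPM after 7 days, a ratio of 0.468 (0.412 to 0.531) and 0.615 (0.537 to 0.704), with a limma adjusted p of 0.00298. The 2 libraries labelled OGT-KO were alike, and the controls were apart from each other. Mrpl14, at the face that meets the small subunit, had -0.45 and -0.25 (limma adjusted p = 0.0489). At the other end, Mrpl39, which has no bacterial counterpart, was at 72.2 and 35.1 CPM and at 60.4 and 34.3 CPM, or 1.02 and 0.80. Mrpl35 followed with 0.94 and 0.71, and Mrps18a with 0.81 and 0.77. Mrps18a and Mrps30 (0.12 and 0.32) are large subunit proteins in spite of their symbols.

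The stalk, which recruits translation factors, and its base are formed by Mrpl10, Mrpl11 and Mrpl12. Their log2 fold changes were 0.51 and 0.44, 0.20 and 0.26, and 0.24 and 0.54. Mrpl12 was at 136 and 115 CPM with no recovery and at 146 and 101 CPM after 7 days, the highest CPM of all members in 3 of the 4 libraries. Limma called Mrpl10 and Mrpl12 higher (adjusted p = 0.0135 and 0.0399). It called none of the 3 lower, and over all genes it called 57% higher and 11.5% lower. EdgeR called none of the 3 higher and 1 lower, beside 20.2% and 33.4% of all genes. All 3 were higher under the OGT-KO label at both times as deposited, by no more than the median of all genes apart from Mrpl12 after 7 days.

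The central protuberance, where bacterial ribosomes hold a 5S rRNA, comprises Mrpl18, Mrpl27, Mrpl38, Mrpl40, Mrpl46, Mrpl48 and Mrpl58. The medians over the 7 were 0.45 and 0.37, and limma called 6 higher and none lower, beside 57% and 11.5% of all genes. EdgeR called none of the 7 higher and 1 lower, beside 20.2% and 33.4% of all genes. Mrpl38 was at 147 and 92.7 CPM with no recovery and at 115 and 89.1 CPM after 7 days (0.66 and 0.37). Mrpl27 was the exception, at 22.3 and 23.6 CPM and at 23.7 and 27.5 CPM, and its 4 libraries overlapped between labels. Of its transcript sequence, 39.0% recurs in other genes. Mrpl18 (0.45 and 0.55), Mrpl40 (0.56 and 0.39), Mrpl46 (0.33 and 0.52), Mrpl48 (0.49 and 0.30) and Mrpl58 (0.40 and 0.31), a peptidyl-tRNA hydrolase that frees stalled ribosomes, stayed near the middle of the group.

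Small subunit members had lower medians than large subunit members. The 24 past the filter had medians of 0.29 and 0.28, against 0.41 and 0.43 for the 49 of the large subunit. The order was the same under the 3 other scalings, where both were below 0 (with TMM, -0.34 and -0.38 against -0.21 and -0.23), so the small subunit was nearer to 0 as deposited and farther from it there. The difference of the subunits was not tested. Limma called 9 small subunit members higher and none lower, and 30 large subunit members higher and 4 lower, beside 57% of all genes higher and 11.5% lower. EdgeR called none of the small subunit higher and 8 lower, and 1 of the large subunit higher and 16 lower. Over all genes it called 20.2% higher and 33.4% lower, so the lower calls in both subunits are near that share. The summed CPM of the large subunit was 2.498 times that of the small subunit under the OGT-KO label and 2.39 times in the control before recovery, and 2.45 and 2.33 times after 7 days. These ratios do not depend on scaling, and both were a little higher under the OGT-KO label.

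The proteins of the mRNA channel and the decoding site had small log2 fold changes at the deposited scaling. They were among the 23 members within 0.3 of 0 with no recovery and the 29 after 7 days. With TMM scaling the log2 ratios of their summed CPM were -0.74 and -0.70. Mrps12, the decoding site protein, was at 38.1 and 40.7 CPM with no recovery and at 35.8 and 33.2 CPM after 7 days. Mrps5 was at 39.0 and 37.7 CPM and at 40.1 and 43.6 CPM, and Mrps24 at 32.3 and 37.2 CPM and at 31.9 and 32.4 CPM. The labels overlapped for Mrps5 and Mrps12 and were barely apart for Mrps24, and limma called none of the 3 (adjusted p = 0.966, 0.814 and 0.477 for Mrps12, Mrps5 and Mrps24). With the median of all genes at 0.51 and 0.48, these 3 lay below the middle of the transcriptome at both times. EdgeR with its TMM scaling called all 3 lower, beside 33.4% of all genes.

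Mrps31 was the highest of the small subunit past the filter, at 50.8 and 27.0 CPM with no recovery and at 42.1 and 25.5 CPM after 7 days (0.89 and 0.70). Mrps35 (-0.39 and -0.14), Mrps9 (-0.23 and -0.29) and Mrps14 (-0.22 and -0.09) were the lowest, and limma called none of the 3 (adjusted p = 0.134, 0.169 and 0.389). Of the 3 paralogs of bacterial S18, Mrps18a had 0.81 and 0.77, Mrps18b 0.46 and 0.12, and Mrps18c 0.52 and 0.33 at under 10 CPM in every library. For Mrps18b, 56.0% of the sequence recurs in other genes. The same holds for 73.9% of Mrps25 and 52.4% of Mrps34, whose values are therefore uncertain. Over the 48 members with at most 10% of recurring sequence, the medians were 0.41 and 0.38, close to those of all 73.

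The other 4 members lay under the filter and were not part of the counts. Mrps6 was at 13.6 and 3.81 CPM with no recovery and at 10.9 and 2.85 CPM after 7 days, a ratio of 3.58 (2.80 to 4.63) and 3.84 (2.87 to 5.21). That is a larger difference than any member past the filter showed, but 32.2% of its transcript sequence also belongs to other genes, among them Slc5a3, a myo-inositol transporter gene of the same locus. Slc5a3 was at 18.2 and 10.3 CPM and at 12.8 and 5.16 CPM. Mrpl33 was at 8.06 to 9.57 CPM, Mrps18c at 6.54 to 9.84 CPM and Mrps36 at 6.96 to 10.1 CPM. Mrps36 is a subunit of the oxoglutarate dehydrogenase complex rather than of the ribosome and belongs to neither subunit here.

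Members inherited from bacteria and members added in the mitochondrial lineage were compared as lists. The 43 with a bacterial counterpart had medians of 0.38 and 0.36 and an SD of 0.50 and 0.40, and the 30 without had 0.42 and 0.38 with an SD of 0.32 and 0.25. Limma called 21 higher and 4 lower in the former and 18 higher and none lower in the latter, beside 57% and 11.5% of all genes. EdgeR called 1 higher and 16 lower in the former and none higher and 8 lower in the latter, beside 20.2% and 33.4% of all genes. The 4 members called lower by limma thus all had a bacterial counterpart, and the difference between the lists was not tested. Many members share a promoter region: 23 of the 77 (29.9%) start head to head with another gene within 1000 bases, against 12.4% of genes past the filter. The 16 partners past the filter had medians of 0.36 and 0.54, with 5 and 2 of them at least 2-fold higher, beside 24.4% and 22.9% of all genes. Ncapd2, a condensin subunit, differed by 2.32 and 2.67 while its partner Mrpl51 differed by 0.22 and 0.25. Fau, which encodes a cytosolic ribosomal protein fused to a ubiquitin-like protein, had 0.91 and 0.77 beside 0.40 and 0.23 for Mrpl49.

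Recovery was compared within each label. Between no recovery and 7 days the member medians were -0.05 under each label, where those of all genes were -0.05 and -0.03. No member differed by 2-fold in either direction. In the control, 0.245% of all genes were 2-fold higher and 0.96% lower after 7 days, and under the OGT-KO label 1.04% and 0.435% were. The SD over members was 0.13 and 0.16. In the control the highest were Mrps9 (0.27), Mrps25 (0.21), Mrpl27 (0.21) and Mrps5 (0.20), and the lowest Mrpl34 (-0.37), Mrps12 (-0.29), Mrpl20 (-0.25) and Mrpl18 (-0.21). Under the OGT-KO label the highest were Mrps16 (0.34), Mrpl4 (0.31), Mrps35 (0.26) and Mrps27 (0.25), and the lowest Mrpl21 (-0.43), Mrpl38 (-0.35), Mrpl22 (-0.32) and Mrps26 (-0.29). The 2 labels thus had different members at their ends. The counting interval of the ratio between the times excluded 1 for 19 members in the control (6 higher and 13 lower) and for 29 under the OGT-KO label (8 higher and 21 lower), which covers counting error only. The share of all genes meeting this rule was not computed, so these counts are not particular to the members. Of all genes, 39.5% in the control and 45.5% under the OGT-KO label were higher after 7 days.

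The label difference itself moved by a median size of 0.13 between the times, and by at most 0.53. Mrps16 moved most. It was at 20.6 and 19.5 CPM with no recovery and at 26.4 and 17.0 CPM after 7 days, so its log2 fold change went from 0.08 to 0.60. Mrpl4 (-0.53 to -0.11), Mrps27 (0.23 to 0.65) and Mrpl34 (-1.05 to -0.67) moved up with it. Mrpl22 (1.24 to 0.89), Mrps18b (0.46 to 0.12), Mrpl47 (0.35 to 0.04) and Mrpl21 (1.38 to 1.09) moved down. With 1 library per condition these moves could not be tested.

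Mitochondrial ribosomal proteins were then set beside the cytosolic ribosome that makes them and the respiratory subunits that work with their products. The 75 cytosolic ribosomal proteins past the filter had medians of 0.56 and 0.54, and the 77 nuclear subunits of oxidative phosphorylation -0.22 and -0.11. The cytosolic median exceeded the member median by 0.13 to 0.17 over the 4 scalings and 2 times, and the oxidative phosphorylation median lay 0.48 to 0.64 below it. As a share of the oxidative phosphorylation sum, the members took 32.9% and 29.4% in the libraries labelled OGT-KO and 21.3% and 21.7% in the controls (no recovery, then 7 days). As a share of the cytosolic ribosomal sum they took 17.3% and 17.8% against 18.8% and 19.7%. Both ratios are free of scaling: relative to RNAs of respiratory subunits the members were higher under the OGT-KO label, and relative to RNAs of the cytosolic ribosome they were slightly lower. Limma called 65 of the 75 cytosolic proteins higher and none lower, and 2 of the 77 respiratory subunits higher and 21 lower. EdgeR with TMM scaling called none of the cytosolic proteins higher and 7 lower, and none of the respiratory subunits higher and 74 lower. Over all genes, limma called 57% higher and 11.5% lower, and edgeR 20.2% higher and 33.4% lower.

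**Figure D4:**
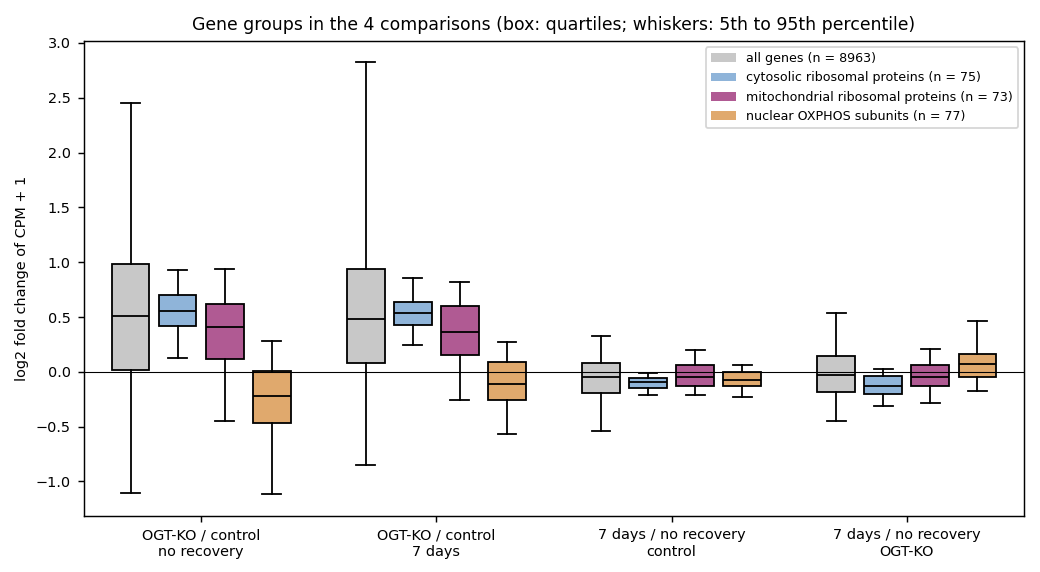
Log2 fold change of CPM + 1 in the 4 comparisons for all genes and 3 gene groups. Between labels the members (medians 0.41 and 0.37) lie just below all genes and the cytosolic ribosomal proteins and above the nuclear respiratory subunits (-0.22 and -0.11), and over recovery all 4 groups lie near 0. The values are at the deposited scaling, and under the others the member medians are between -0.31 and -0.06.

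Other genes of mitochondrial translation were compared at the deposited scaling, where limma called 57% of all genes higher and 11.5% lower. EdgeR, with TMM scaling, called 20.2% higher and 33.4% lower, and its calls are given beside those of limma. A set of 5 ribosomal proteins carry other names. Ptcd3, which helps to bring mRNA to the small subunit, was at 55.3 and 26.5 CPM with no recovery and at 55.6 and 26.5 CPM after 7 days (1.04 and 1.04, limma adjusted p = 0.000538). Dap3, a GTP-binding protein of the small subunit, had 0.74 and 0.55, Aurkaip1 0.50 and 0.49, Gadd45gip1 0.34 and 0.18, and Chchd1 0.23 and 0.15. Limma called Ptcd3, Dap3 and Aurkaip1 higher and did not call the other 2, and edgeR called 1 of the 5 higher and 2 lower.

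Of 26 assembly factors, 19 passed the filter, with medians of 0.17 and 0.19, and limma called 5 higher and none lower, where edgeR called 1 higher and 9 lower. The ends were Trub2, a pseudouridine synthase, at 31.2 and 9.31 CPM with no recovery and at 28.4 and 11.8 CPM after 7 days (1.64 and 1.20), and Mpv17l2 at 5.90 and 14.2 CPM and at 12.2 and 12.9 CPM (-1.14 and -0.07). Translation factors, with 10 of 13 past the filter, had medians of 0.35 and 0.48, and limma called 6 higher and none lower, where edgeR called none higher and 2 lower. They ran from Mtfmt (0.79 and 0.80), which formylates the initiator methionyl-tRNA, to the initiation factor Mtif2 (0.07 and -0.11). Of 17 mitochondrial aminoacyl-tRNA synthetases, 14 passed, with medians of 0.08 and 0.28, and limma called 5 higher and none lower, where edgeR called none higher and 7 lower, from Iars2 (0.56 and 0.64) to Fars2 (-0.23 and -0.38). The machinery of mitochondrial DNA and RNA, 8 of 10 past the filter, had 0.39 and 0.27, and limma called 4 higher and none lower, where edgeR called none higher and 2 lower. Slirp, an RNA-binding protein that stabilizes mitochondrial mRNAs, had 0.94 and 0.72, and Ssbp1, the single-strand DNA-binding protein, 0.13 and -0.03.

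Regulators known to act on these genes were listed as well, and 7 of 9 passed the filter. Myc was at 69.7 and 11.1 CPM with no recovery and at 43.5 and 11.5 CPM after 7 days (2.55 and 1.83, limma adjusted p = 0.000169). Nrf1 had 1.06 and 0.66, Gabpb1 1.16 and 0.90, Gabpa 0.60 and 0.37, Pprc1 0.59 and 0.15, Yy1 0.38 and 0.21, and Esrra -0.03 and 0.34. Limma called Myc, Nrf1, Gabpa and Gabpb1 higher and none of the 7 lower, beside 57% and 11.5% of all genes. These 4 higher calls among 7 are near the share of all genes. EdgeR with TMM scaling called 1 of the 7 higher and 1 lower, beside 20.2% and 33.4% of all genes. Ppargc1a and Ppargc1b were under the filter, at 6.46 to 10.4 CPM and 3.71 to 4.85 CPM.

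**Figure D5:**
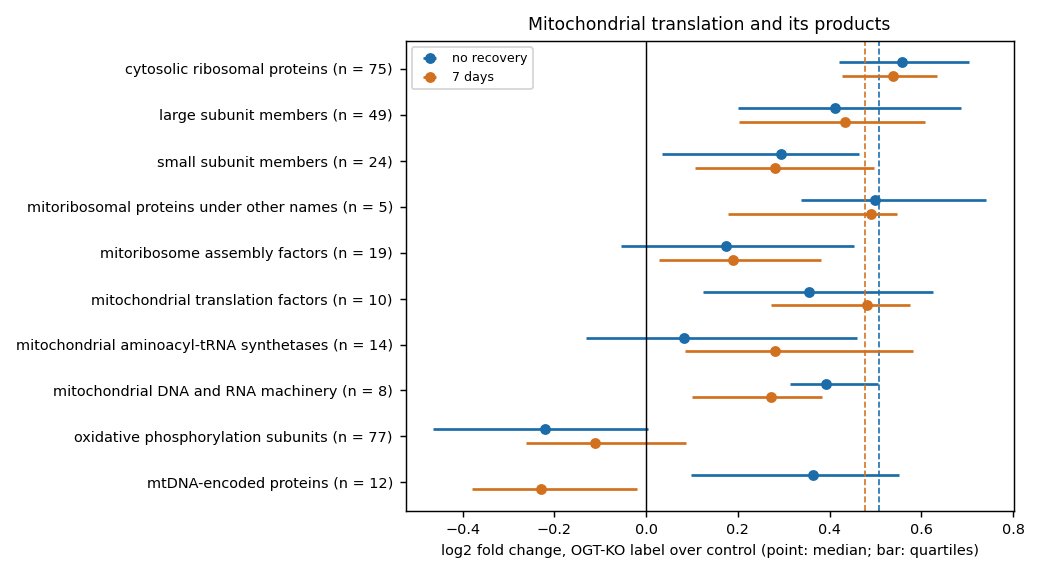
Median (point) and quartiles (bar) of the log2 fold change between labels for the members by subunit and for 8 related gene lists, with dashed lines at the medians of all genes. The member medians (0.41 and 0.43 for the large subunit, 0.29 and 0.28 for the small subunit) lie between those of the cytosolic ribosome and of the nuclear respiratory subunits. The values are at the deposited scaling, and under the others all lists shift down together.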

How the data were processed

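Liver mRNA-seq from 4 pooled libraries was used. The authors deposited CPM for 13903 genes: each column sums to 1000000, although the table is named for normalized counts. The submitters' processing notes name STAR, DESeq2 and GRCm39, with no versions. All values (100% in each library, tolerance 0.01 read) were whole multiples of 1 read, so whole reads were recovered, 19972699 to 22866431 per library. The floor of 3 reads is 0.131 to 0.150 CPM. Intervals (95%, exact Clopper-Pearson for levels) cover counting error only, and reads are not known to be single molecules.

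Differences of log2(CPM + 1), which shrink the changes of low genes, were taken for genes averaging 10 CPM or more and called at 2-fold. With 1 library per condition this has no test. Label and time were fitted in limma 3.58.1 with trend, Benjamini-Hochberg adjusted over 8963 genes. The edgeR 4.0.16 quasi-likelihood test on reads, with R 4.3.3, was an alternative, with other pseudocounts, filters, scalings and thresholds. The steps were tested on simulated reads with few changed genes, equally many of them higher and lower. That setting has no shift of most genes, so it does not bear on the choice of scaling. Exon lengths and repeated 50-base words came from GENCODE M21 (GRCm38), and promoters from RefSeq (GRCm38.p6). The members and lists were chosen with earlier results of these data known. Genes named are the 8 highest and 8 lowest in mean label difference, the 4 most changed in each direction over recovery in each label and between times, the 5 highest and 5 lowest per length, members under the filter, the genes of the lists by role, and the ends of the other lists. Ighmbp2, Ncapd2, Fau and other members given in passing were chosen after their values were seen.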

Additional observations from a re-analysis of the deposited data

Results flagged for a closer look

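The label difference had opposite signs at the 2 times for 4 members and 1 list, which was not tested. Mrpl42 was lower under the OGT-KO label with no recovery (-0.04) and higher after 7 days (0.27), a difference of 0.31 (log2). For Mrpl41 the values were -0.09 and 0.14, a difference of 0.23, and for Mrps12 -0.09 and 0.11, a difference of 0.20. Mrps5 went the other way, from 0.05 to -0.12, a difference of -0.16. The median of the proteins encoded by mitochondrial DNA was 0.36 with no recovery and -0.23 after 7 days, a difference of -0.59. Under upper-quartile scaling the 4 members were below 0 at both times. The list median was below 0 at both times under the 3 other scalings, at -0.35 and -0.89 with the median ratio, -0.11 and -0.70 with the upper quartile and -0.29 and -0.89 with TMM. The opposite signs thus belong to the deposited scaling.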

How the results depend on the processing

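Of 124 recomputed summary values 72 were classed as the same, 41 as moved, 7 as weaker and 4 as stronger. A count was classed as the same when within 1.5-fold of its main value. Of 952 values of single members 700 were classed as the same and 252 as moved. Scaling had the largest reach. With median-ratio scaling, 0 members were 2-fold higher and 6 lower with no recovery, 0 higher and 2 lower after 7 days, the medians were -0.29 and -0.31, limma called 1 higher and 29 lower, and the summed CPM was 2403 (OGT-KO label) and 3001 (control) before recovery, then 2404 and 2981. With the upper quartile, the counts were 0 and 3, then 0 and 2, the medians -0.059 and -0.115, the limma calls 5 and 14, and the sums 2617, 2769.8, 2570.2 and 2774. With TMM, they were 0 and 6, then 0 and 2, -0.23 and -0.30, 2 and 26, and 2478, 2959, 2389.8 and 2950.1. EdgeR called 1 higher and 24 lower. Over all genes, limma called 5112 higher and 1031 lower as deposited, 1705 and 3114 with the median ratio, 2417 and 2194 with the upper quartile, and 1849 and 3046 with TMM, and edgeR called 1814 and 2990. At 2-fold with no recovery, 2185 and 510 genes became 935 and 1381, 1208 and 981, and 1001 and 1272 under the 3 scalings, and after 7 days 2050 and 383 became 1038 and 1055, 1215 and 740, and 1041 and 1044. At a pseudocount of 10, 1 member was 2-fold higher and 0 lower with no recovery and 0 higher after 7 days. With no filter, 2 were 2-fold higher after 7 days, and limma called 8642 genes higher. With a mean of at least 50 CPM, which 12 members pass, 1 was higher and 0 lower with no recovery, 0 higher after 7 days, and limma called 8 higher and 1 lower, with 1421 and 640 over all genes. At 1.5-fold, 20 members were higher and 2 lower with no recovery, and 19 and 2 after 7 days, or 27.4%, 2.74%, 26.0% and 2.74% of the 73, beside 45.5%, 10.1%, 43.0% and 7.52% of all genes. Limma without trend called 2 lower.

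No paired analysis was possible because each condition is 1 library and no replicate number ties libraries together. Leaving out a library was not run as a test, since the fit would keep no residual degree of freedom. With 1 pooled library per condition, mice cannot be told apart, and a difference between the times within a label has no error. The median counting half-width of a member's log2 ratio was 0.15, and it was narrower for abundant members.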

Other observations

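The mRNAs that mitochondrial ribosomes translate were not shifted alike at the 2 times. Values are at the deposited scaling. The 13 proteins encoded by mitochondrial DNA took 7.20% and 6.36% of the libraries labelled OGT-KO and 5.73% and 6.49% of the controls (no recovery, then 7 days). Over recovery all 12 that passed the filter were higher in the control, with a median of 0.22, and all 12 were lower under the OGT-KO label, with a median of -0.18. Between labels, mt-Nd1, a complex I subunit, was at 15356 and 6060 CPM with no recovery and at 12760.0 and 7199 CPM after 7 days (1.34 and 0.83), while mt-Cytb, of complex III, was at 7226 and 11045 CPM and at 7011 and 11857 CPM (-0.61 and -0.76). These genes are cut from long shared transcripts, and several have copies in the nuclear genome. The complex IV subunit mt-Co1 was at 20062 to 28439 CPM, but mt-Co2 and mt-Co3 were listed at 61.3 to 100.1 CPM and 63.4 to 76.3 CPM, and levels were not compared between them. The handling of reads that match more than 1 copy is not given in the sources used here.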
